A study of Mus musculus with 18 samples.

Results

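Folliculin (Flcn), its partners Fnip1 and Fnip2, the MiT/TFE transcription factors Tfe3, Tfeb and Mitf, the tuberous sclerosis complex genes Tsc1 and Tsc2, and the Rag GTPase genes Rragc and Rragd were followed in mouse embryonic stem cells (ESCs) leaving naive pluripotency. These 10 genes were chosen by name as lysosomal and mTORC1 regulators of that exit, and were found by their Ensembl identifiers among the 53801 genes of the count table. All 10 had enough reads to be tested, among 18469 genes that did. The RNA sequencing covered 6 groups of 3 libraries from E14 cells. WT was the parental E14 line, without a transgene or doxycycline. iEZR_CA was the E14-derived line that expresses a phosphomimetic, constitutively active form of ezrin (Ezr), a protein that ties the plasma membrane to cortical actin, from a doxycycline-inducible construct. Doxycycline went onto iEZR_CA overnight ahead of exit and not onto WT, so transgene, drug and derivation of the line cannot be told apart. In both lines, ESC libraries came from naive cells in 2i+LIF (MEK and GSK3 inhibitors with leukemia inhibitory factor), and T24 and T48 libraries from cells after 24 h and 48 h in N2B27 medium without these factors, all on gelatin.

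Folliculin and an FNIP protein form a complex on the lysosome that acts as a GTPase-activating protein for RagC and RagD. The Rag GTPases bring the kinase mTORC1 to the lysosome, and in this setting mTORC1 phosphorylates TFE3, TFEB and MITF, which then stay in the cytoplasm. TSC1 and TSC2 restrain mTORC1 along another arm, through the GTPase Rheb. When mTORC1 does not reach them, MiT/TFE factors enter the nucleus and switch on lysosomal and autophagy genes, the CLEAR network. In ESCs, loss of folliculin is known to leave TFE3 in the nucleus, to sustain the naive factor Esrrb and to block exit. Location and phosphorylation of these proteins are not visible in RNA levels.

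The libraries held between 10940752 and 33276622 reads on genes, with a median of 23096248. Ezr had 11763 ± 277 normalized counts (SD, n = 3) in WT and 24819 ± 499 in iEZR_CA ESCs, 7711 ± 175 and 20793 ± 564 at T24, and 10096 ± 413 and 16215 ± 165 at T48, so it was higher in iEZR_CA at every stage and matched the labels. A normalized count is a read count divided by a DESeq2 size factor. Pluripotency markers (Pou5f1, Sox2, Nanog and Esrrb, summed) were between 62050 and 72876 in the ESC libraries and between 15981 and 19198 in those at T48. At T24 they were 35589 to 35690 in WT and 42855 to 43303 in iEZR_CA. Of these, Pou5f1 was lower in iEZR_CA (13280 against 18541 on average). Formative (post-naive) markers (Otx2, Fgf5, Pou3f1 and Dnmt3b, summed) were 40194 to 42503 in WT and 14861 to 15815 in iEZR_CA at T24. At T48 they were 73188 to 79028 against 36758 to 38833. Otx2 was higher in iEZR_CA then (3492 against 2083 on average), and Fgf5 overlapped. The part of these differences in the results below was not tested. All 4 fibroblast or feeder markers together lay between 20.1 and 34.8 in ESC libraries and between 335 and 512 at T48. The 4 did not share that rise. At T48 it was mostly Dcn in iEZR_CA (331 on average, with Col1a1 at 16.4, Col1a2 at 10.6 and Lum at 7.56). In WT it was mostly Dcn (227) and Col1a2 (200.3), with Col1a1 at 50.6 and Lum at 0.258. Summed markers of primitive endoderm were higher in iEZR_CA than in WT at ESC (745 to 806 against 228 to 252) and T24 (376 to 430.0 against 132 to 170.2), and lower at T48 (229 to 265 against 284 to 325). The higher sums came mostly from Dab2, with 631 ± 19.0 in iEZR_CA and 45.2 ± 11.1 in WT at ESC and 303 ± 24.5 and 33.5 ± 8.47 at T24. The other 5 markers summed to less in iEZR_CA than in WT at ESC (129 to 154 against 195 to 202). Of these, Gata4 was lower in iEZR_CA at ESC (17.4 against 97.5 on average) and Gata6 was higher (61.5 ± 6.15 against 32.4 ± 3.06). Sox17, Pdgfra and Foxa2 overlapped between the lines there. At T24 the lines overlapped in the sum without Dab2 (95.6 to 102 against 99.9 to 128). Each of the 6 markers was above 3 reads in at least 1 library of every group. Their part in the results below was not tested. The share of reads set aside as low-quality alignments was between 0.889% and 1.02% in iEZR_CA and between 0.519% and 0.612% in WT, and its part was not tested either.

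Genes were tested with edgeR's quasi-likelihood test, with Benjamini-Hochberg adjustment over all genes, and were called at an adjusted p under 0.05. The calls were common. At ESC, 54.5% of all tested genes were called between the lines (26.4% higher in iEZR_CA, 28.1% lower), and of the 10 genes 6 were (2 higher, 4 lower). At T24 it was 60.9% of all genes (30.8% higher, 30.1% lower) and 8 of the 10 (5 higher, 3 lower). At T48 it was 61.1% (31.0% higher, 30.1% lower) and 8 of the 10 (4 in each direction). With so few genes these shares are near the background. Their number is therefore no result, and what follows describes each gene's direction and size. At an absolute log2 fold change above 0.5 as well, 1 gene was called at ESC (background 23.9%), 4 at T24 (29.7%) and 2 at T48 (30.8%).

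**Figure D1:**
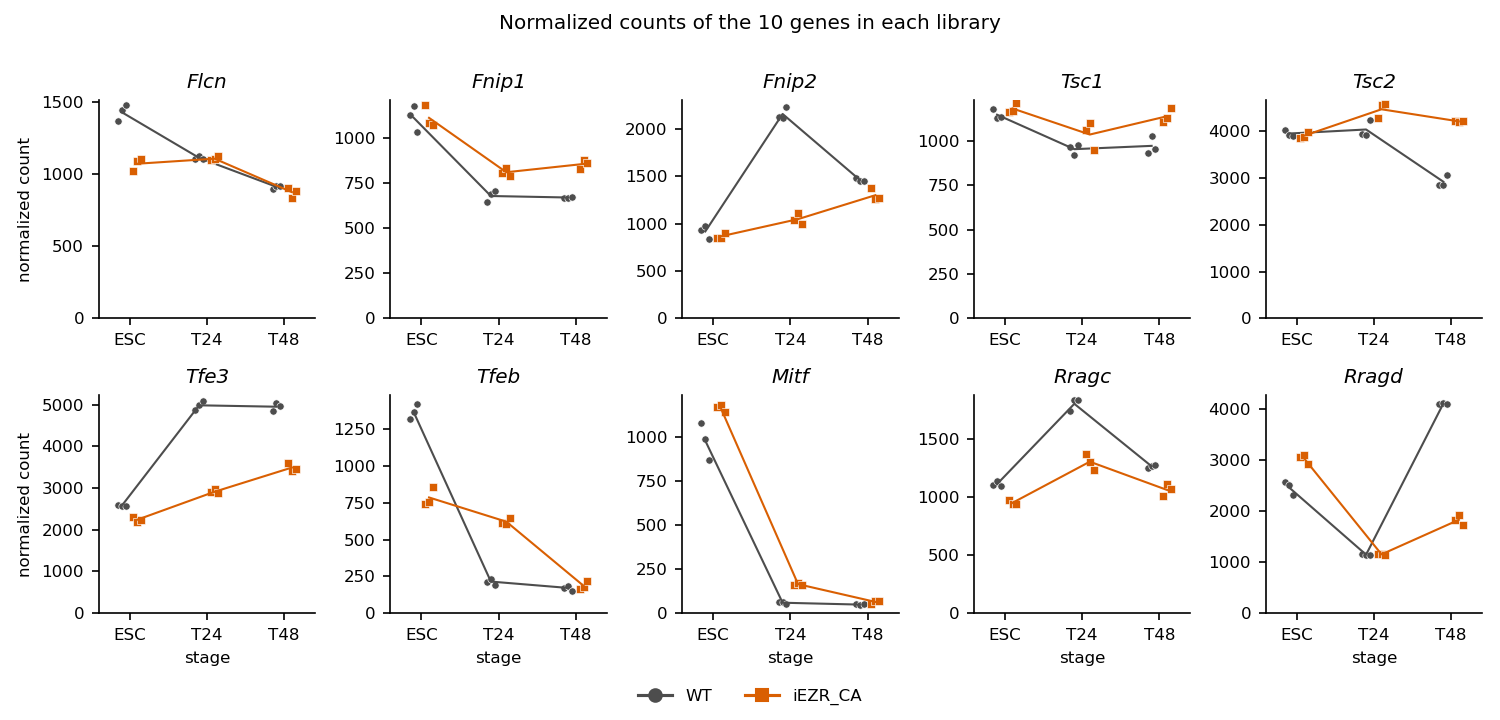
Normalized counts (y axis, from 0) of the 10 genes at each stage (x axis) in WT (grey circles) and iEZR_CA (orange squares). Each point is 1 library and lines join the group means. At T24, Fnip2 and Tfe3 were higher in WT and Tfeb was higher in iEZR_CA, while Rragd differed most at T48, from 1832 in iEZR_CA to 4114 in WT.

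The recognition sequence of MiT/TFE factors has the E-box CACGTG at its centre, and the promoter windows of the 10 genes were searched for it because members of this pathway are themselves known to be MiT/TFE targets. Of 32851 RefSeq promoter windows (300 bases, of which 250 lie before the start site, GRCm38.p6), 2349 held CACGTG (7.15%). The longer CACGTGA, which contains it, was in 3.77%. Both strands were searched. The 10 genes had 15 windows. Fnip1 and Rragc had 1 window each, and each held CACGTG and CACGTGA once. The windows of the other 8 genes held neither. The 250 bases before the start site are given for Fnip1 (chr11:54437929-54438178, plus strand) and Rragc (chr4:123917183-123917432, plus strand), 5′ to 3′, with the E-box in capitals.
Fnip1: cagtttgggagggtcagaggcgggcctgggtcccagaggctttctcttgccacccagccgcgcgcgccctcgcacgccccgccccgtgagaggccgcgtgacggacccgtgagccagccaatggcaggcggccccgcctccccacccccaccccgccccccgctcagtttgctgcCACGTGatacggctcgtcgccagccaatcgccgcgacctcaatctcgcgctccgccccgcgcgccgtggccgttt
Rragc: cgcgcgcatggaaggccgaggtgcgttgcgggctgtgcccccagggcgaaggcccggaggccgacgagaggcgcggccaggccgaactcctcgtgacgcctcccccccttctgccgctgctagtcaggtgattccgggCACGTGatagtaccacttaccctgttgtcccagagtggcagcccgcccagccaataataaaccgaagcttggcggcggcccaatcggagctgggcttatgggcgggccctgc
The E-box began 75 bases before the start site in Fnip1 and 112 bases before it in Rragc. A match describes these letters only, and binding was not measured.

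Flcn, the GTPase-activating subunit of the complex (chromosome 11, 59791408 to 59810016 on the minus strand of GRCm38), differed between the lines only before exit among the 3 stages tested. Its normalized counts were 1367, 1443 and 1480 in WT ESCs and 1022, 1091 and 1106 in iEZR_CA ESCs. The WT libraries were all higher, and the log2 fold change was -0.42 ± 0.0429 (SE, edgeR adjusted p = 1.7e-13). In bulk RNA, fewer cells that express a gene and less RNA in each cell cannot be told apart. At T24 the counts were 1108, 1128 and 1105 in WT and 1097, 1103 and 1124 in iEZR_CA. At T48 they were 901, 916 and 922 in WT and 908, 836 and 884 in iEZR_CA. The lines overlapped at both later stages, with log2 fold changes of -0.01 ± 0.0440 (adjusted p = 0.92) and -0.06 ± 0.0466 (adjusted p = 0.31).

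Flcn followed a different course in each line. In WT it fell by 0.38 on the log2 scale from ESC to T24 and by 0.29 from T24 to T48. In iEZR_CA it was level over the first step (log2 fold change 0.04 ± 0.0447, edgeR adjusted p = 0.43) and fell by 0.34 over the second. The change from ESC differed between the lines by 0.42 ± 0.0615 at T24 (adjusted p = 4.9e-08) and by 0.37 ± 0.0634 at T48 (adjusted p = 1.3e-06). Because the lines overlapped at T24 and T48, both differences have their counterpart in the ESC values. When libraries were scaled to the spike-in RNA, the net change of Flcn from ESC to T48 in WT was still called (-0.40, adjusted p = 0.0044). The single steps were not, at -0.24 from ESC to T24 in WT (adjusted p = 0.13), -0.16 from T24 to T48 in WT (adjusted p = 0.32) and -0.24 over that second step in iEZR_CA (adjusted p = 0.14). The net change in iEZR_CA was -0.05 (adjusted p = 0.78), and the differences of change were 0.43 ± 0.185 (adjusted p = 0.11) and 0.35 ± 0.186 (adjusted p = 0.18), none of them called. The estimates of these differences were thus close to those of the main fit, with larger SEs.

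Fnip2, one of the 2 partner genes of folliculin's complex (chromosome 3, 79455974 to 79567796, minus strand), rose as WT cells left the naive state and rose far less in iEZR_CA. It had 939.6, 976 and 843 normalized counts in WT ESCs and 2126, 2121 and 2234 in WT at T24, a 2.32-fold rise (log2 fold change 1.22 ± 0.0446, edgeR adjusted p = 7.9e-35). In iEZR_CA it had 853, 850.4 and 899 at ESC and 1043, 1112 and 993 at T24. The T24 libraries stood above the ESC libraries in both lines, but the iEZR_CA rise was 1.21-fold. The difference between these changes was -0.94 ± 0.0673 (adjusted p = 6.1e-19), and at T24 Fnip2 in iEZR_CA was 0.489 times its level in WT.

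By T48 Fnip2 had moved towards the same level in both lines. WT had fallen to 1483, 1453 and 1452 normalized counts, and iEZR_CA had risen to 1377, 1258 and 1271. The iEZR_CA libraries were still lower, with a log2 fold change of -0.16 ± 0.0447 (edgeR adjusted p = 0.0012) that was -0.12 and not called under spike-in scaling (adjusted p = 0.51). The net change from ESC to T48 in iEZR_CA less that in WT was -0.07 ± 0.0673 (adjusted p = 0.44). At ESC, Fnip2 did not pass the test between the lines (log2 fold change -0.10 ± 0.0503, adjusted p = 0.1). Without WT replicate 3 it did (log2 fold change -0.16, adjusted p = 0.0075).

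Fnip1, the other partner and one of the 2 genes with the E-box printed above (chromosome 11, 54438199 to 54518235, plus strand), went the opposite way to Fnip2. It had 1128, 1181 and 1036 normalized counts in WT ESCs and 645, 689 and 706 in WT at T24. In iEZR_CA it had 1184, 1086 and 1072 at ESC and 807, 837 and 792 at T24. The lines overlapped at ESC and were apart at T24, where iEZR_CA was higher by 0.27 ± 0.0528 on the log2 scale (edgeR adjusted p = 8.4e-06). At T48 WT had 671, 667 and 677 and iEZR_CA 829, 879 and 866, again without overlap, with a log2 fold change of 0.36 ± 0.0522 (adjusted p = 1.6e-08). Fnip1 fell by 0.74 from ESC to T24 in WT and by 0.46 in iEZR_CA, and that difference was called (0.28 ± 0.0707, adjusted p = 8.8e-04). Under spike-in scaling neither the fall in iEZR_CA (-0.31, adjusted p = 0.056) nor the difference (0.29, adjusted p = 0.4) was called.

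The makeup of the folliculin complex's partner pool was read from the share of Fnip2 in the sum of Fnip1 and Fnip2, each per kilobase of exon. A share does not depend on how libraries are scaled. It was 41.2% ± 0.286 (SD, n = 3) in WT ESCs and 39.9% ± 1.82 in iEZR_CA ESCs, which overlapped. In WT it was 73.0% ± 0.689 at T24 and 65.0% ± 0.343 at T48. In iEZR_CA it was 52.4% ± 0.713 and 56.3% ± 1.95, below every WT library at both stages. With 3 libraries in each group a two-sided exact permutation test cannot give a p below 0.1, the value at T24 and T48, and it gave 0.4 at ESC.

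**Figure D2:**
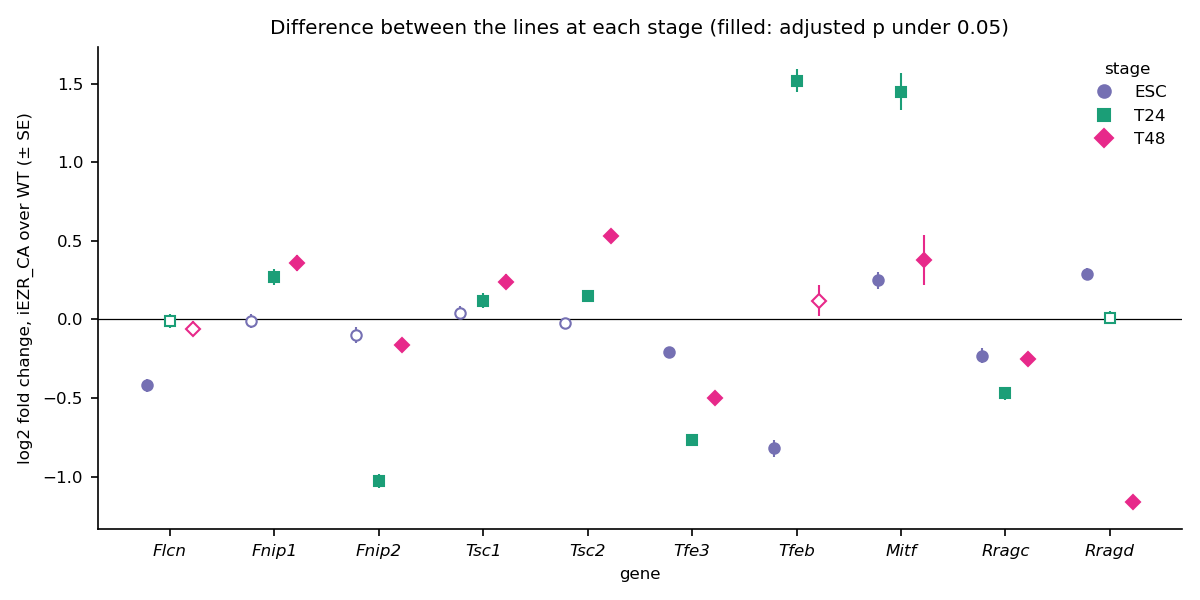
Log2 fold change of iEZR_CA over WT (y axis, with SE) for each gene (x axis) at ESC (circles), T24 (squares) and T48 (diamonds). Filled symbols passed an adjusted p under 0.05. At T24, Tfeb at 1.52 and Mitf at 1.45 lay opposite to Fnip2 at -1.03 and Tfe3 at -0.77.

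Tsc2, the subunit of the tuberous sclerosis complex that inactivates Rheb (chromosome 17, 24595816 to 24632630, minus strand), fell late in WT and stayed up in iEZR_CA. It had 4006, 3920 and 3896 normalized counts in WT ESCs and 3849, 3862 and 3977 in iEZR_CA ESCs, which overlapped. At T24 WT had 3938, 3910 and 4234, and iEZR_CA 4265, 4548 and 4561. At T48 WT had 2835, 2843 and 3064, and iEZR_CA 4203, 4187 and 4211. The iEZR_CA libraries were above all WT libraries at both later stages, by 0.15 ± 0.0314 on the log2 scale at T24 (edgeR adjusted p = 1.9e-05, but 0.16 under spike-in scaling) and by 0.53 ± 0.0323 at T48 (adjusted p = 2.5e-23). From ESC to T48, Tsc2 fell by 0.45 in WT and rose by 0.11 in iEZR_CA, and the difference was 0.55 ± 0.0452 (adjusted p = 5.0e-17). Under spike-in scaling the fall in WT was -0.19 and not called (adjusted p = 0.18). On the opposite strand, Pkd1 shares 693 exonic bases with Tsc2 (7.2% of its exonic length), and the sources used here do not say whether strand was used in counting.

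Tsc1, which stabilises TSC2 (chromosome 2, 28641228 to 28691167, plus strand), moved little. Over all 18 libraries its normalized counts lay between 917 and 1212. At T48 WT had 931, 1029 and 953, and iEZR_CA 1104, 1126 and 1183, without overlap and with a log2 fold change of 0.24 ± 0.0473 (edgeR adjusted p = 7.5e-06). That call was lost under spike-in scaling (0.29, adjusted p = 0.063). At T24 Tsc1 was at 966, 917 and 974 in WT and 1059, 1100 and 945 in iEZR_CA, which overlapped. The log2 fold change there was 0.12 ± 0.0479 (adjusted p = 0.022) and the call was lost with DESeq2 (adjusted p = 0.059) and without iEZR_CA replicate 1 (0.11), iEZR_CA replicate 2 (0.07) or WT replicate 2 (0.10). It was also lost with upper-quartile factors (edgeR adjusted p = 0.08) and with spike-in scaling (edgeR adjusted p = 0.24).

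Rragc and Rragd encode the RagC and RagD GTPases on which folliculin acts, and the pair moved in opposite directions at the start of exit. Rragc (chromosome 4, 123917446 to 123936997, plus strand) carries the other E-box printed above. It had 1103, 1134 and 1090 normalized counts in WT ESCs, 1740, 1828 and 1830 in WT at T24, and 1247, 1266 and 1273 at T48. In iEZR_CA it had 969, 941 and 934 at ESC, 1372, 1301 and 1232 at T24, and 1003, 1109 and 1064 at T48. Both lines peaked at T24, and iEZR_CA was below WT without overlap at every stage. Its log2 fold change was -0.23 ± 0.0453 before exit, -0.47 ± 0.0411 at T24 and -0.25 ± 0.0437 at T48 (edgeR adjusted p = 9.5e-06, 5.3e-16 and 1.3e-06). With spike-in scaling the difference at T24 was still called, and those at ESC (-0.18, adjusted p = 0.34) and T48 (-0.19, adjusted p = 0.27) were not. Of the exonic length of Rragc, 264 bases (7.9%) are shared with 4930535I16Rik on the opposite strand.

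Rragd (chromosome 4, 32983037 to 33022180, plus strand) had the largest late difference between the lines among the 10 genes. It started at 2569, 2521 and 2327 normalized counts in WT ESCs and at 3074, 3099 and 2929 in iEZR_CA ESCs. The iEZR_CA libraries were higher, by 0.29 ± 0.0349 on the log2 scale (edgeR adjusted p = 5.9e-11). At T24 both lines were at the same low level, 1157, 1148 and 1137 in WT and 1164, 1162 and 1134 in iEZR_CA. At T48 Rragd stood at 4111, 4132 and 4101 in WT and at 1837, 1928 and 1730 in iEZR_CA. Both lines had risen from T24, WT 3.57-fold and iEZR_CA 1.60-fold, and the iEZR_CA level at T48 was 0.449 times that of WT (log2 fold change -1.16 ± 0.0352, adjusted p = 1.6e-39).

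Against its own ESC level, Rragd at T48 was higher in WT and lower in iEZR_CA. The log2 fold changes were 0.72 ± 0.0342 and -0.73 ± 0.0359, and they differed by -1.45 ± 0.0496 (edgeR adjusted p = 5.9e-36). At T24 the fall from ESC was larger in iEZR_CA than in WT (1.40 against 1.12 on the log2 scale), a difference of -0.29 ± 0.0547 (adjusted p = 1.5e-05) that was -0.26 and not called under spike-in scaling (adjusted p = 0.44). Rragd made up 59.0% ± 1.06 of the Rragc and Rragd sum per kilobase in WT ESCs, 29.2% ± 0.768 at T24 and 67.8% ± 0.252 at T48 (SD, n = 3). In iEZR_CA the shares were 67.4% ± 0.561, 36.4% ± 0.953 and 52.8% ± 1.48. The lines did not overlap in this share at any stage, iEZR_CA being higher at ESC and T24 and lower at T48, each at the smallest p of 0.1 that the two-sided exact permutation test can give.

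**Figure D3:**
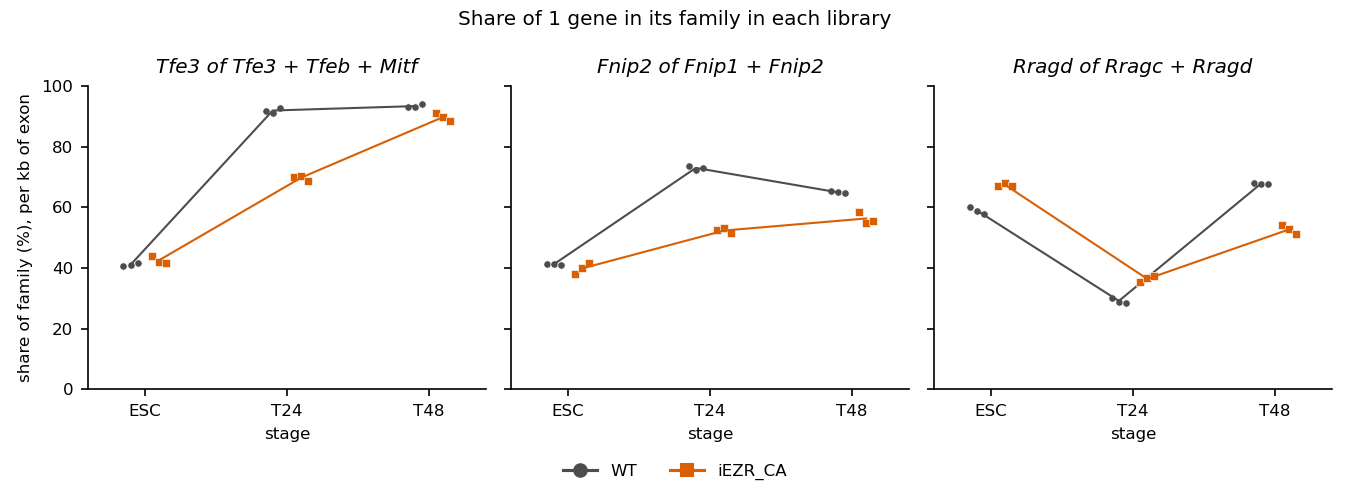
Share of Tfe3 among Tfe3, Tfeb and Mitf, of Fnip2 among Fnip1 and Fnip2, and of Rragd among Rragc and Rragd (y axes, percent of the summed normalized counts per kilobase of exon) at each stage (x axis). Points are libraries of WT (grey circles) and iEZR_CA (orange squares), and lines join the means. At T24 the Tfe3 share was 91.9% in WT and 69.8% in iEZR_CA.

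Tfe3, the MiT/TFE factor named above as the brake on exit when it stays nuclear (chromosome X, 7762560 to 7775202, plus strand), rose early in WT and more slowly in iEZR_CA. It had 2593, 2571 and 2571 normalized counts in WT ESCs, 4885, 4986 and 5088 at T24, and 4839, 5038 and 4981 at T48. In iEZR_CA it had 2309, 2188 and 2226 at ESC, 2896, 2966 and 2875 at T24, and 3603, 3411 and 3464 at T48. WT thus reached its level within the first step, iEZR_CA rose over both, and iEZR_CA was below WT without overlap at all 3 stages. The gap on the log2 scale was -0.21 ± 0.0317 before exit, -0.77 ± 0.0297 at T24 and -0.50 ± 0.0293 at T48 (edgeR adjusted p = 4.5e-08, 8.4e-34 and 5.6e-24). The difference at ESC was not called under spike-in scaling (-0.15, adjusted p = 0.4).

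The rise of Tfe3 from ESC to T24 was 1.92-fold in WT and 1.30-fold in iEZR_CA. These changes differed by -0.56 ± 0.0435 on the log2 scale (edgeR adjusted p = 1.0e-17). At T48 the difference was -0.29 ± 0.0432 (adjusted p = 6.6e-08), and with spike-in scaling it was -0.30 and was not called (adjusted p = 0.27). More Tfe3 RNA during exit, in either line, says nothing about where the protein was.

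Tfeb, the factor best known as a master regulator of lysosome formation (chromosome 17, 47737030 to 47792419, plus strand), went down during exit, and the time of its fall differed most between the lines. It had 1321, 1365 and 1420 normalized counts in WT ESCs and 214, 235 and 194 in WT at T24. In iEZR_CA it had 739.7, 759 and 861 at ESC and 609.7, 607 and 649 at T24. WT was higher before exit and iEZR_CA was higher at T24, with no overlap at either stage. The log2 fold change between the lines was -0.82 ± 0.0543 at ESC (edgeR adjusted p = 9.2e-21) and 1.52 ± 0.0743 at T24 (adjusted p = 1.8e-27). By T48 Tfeb was low in both, at 174, 187 and 152 in WT and 166, 175 and 215 in iEZR_CA, which overlapped (log2 fold change 0.12 ± 0.0980, adjusted p = 0.28).

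From ESC to T24, Tfeb dropped by 2.67 on the log2 scale in WT and dropped by 0.33 in iEZR_CA, and the latter was -0.19 and not called under spike-in scaling (adjusted p = 0.29). The difference between these changes, 2.34 ± 0.0921 (edgeR adjusted p = 2.0e-31), had the highest value among the 10 genes. From T24 to T48, iEZR_CA dropped by 1.77 (adjusted p = 2.0e-30) and WT by 0.37 (adjusted p = 5.6e-04, but 0.24 under spike-in scaling). Over both steps the fall was 3.04 in WT and 2.10 in iEZR_CA, and the difference was 0.94 ± 0.11 (adjusted p = 1.1e-10). Because the lines started from different levels and reached an overlapping one, this net difference has its counterpart in the ESC values.

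Mitf, the family member that controls the melanocyte lineage (chromosome 6, 97807052 to 98021349, plus strand), fell more steeply than the other 9 genes in both lines. It had 1078, 986 and 868 normalized counts in WT ESCs and 61.8, 65.6 and 48.9 in WT at T24. In iEZR_CA it had 1167, 1180 and 1142 at ESC and 162, 169 and 161 at T24. The iEZR_CA libraries were higher without overlap at both stages, by 0.25 ± 0.0548 (edgeR adjusted p = 6.8e-05) and 1.45 ± 0.12 (adjusted p = 2.3e-16) on the log2 scale. The difference at ESC was not called under spike-in scaling (0.30, adjusted p = 0.084). From ESC to T24 it fell by 4.02 in WT and fell by 2.83 in iEZR_CA, a difference of 1.19 ± 0.14 (adjusted p = 4.4e-11).

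At T48 Mitf was at 49.5, 45.9 and 49.1 normalized counts in WT and 53.5, 70.8 and 65.9 in iEZR_CA. Although the lines did not overlap, the log2 fold change of 0.38 ± 0.16 was at the edge of the threshold (edgeR adjusted p = 0.035). It lost its call without iEZR_CA replicate 2 (0.27) or 3 (0.37) and without WT replicate 1 (0.39), 2 (0.37) or 3 (0.38). The call was also lost with upper-quartile factors (edgeR adjusted p = 0.052) and with spike-in scaling (edgeR adjusted p = 0.091). From T24 to T48, Mitf fell by 1.37 in iEZR_CA (adjusted p = 7.7e-16). In WT the change over that step was -0.31 ± 0.17 (adjusted p = 0.093), and without WT T24 replicate 3 it was -0.39 and was called (adjusted p = 0.046). Tfec, the fourth gene of the family, had no read in 15 libraries and between 1 and 2 reads in each WT library at T48. At a floor of 3 reads a library, it was not detectable at this depth.

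Taken per kilobase of exon, the MiT/TFE pool changed from mixed to mostly Tfe3. In WT ESCs Tfe3 made up 41.1% ± 0.406 of the pool (SD, n = 3), Tfeb 35.6% ± 1.79 and Mitf 23.3% ± 2.19. At T24 in WT, Tfe3 made up 91.9% ± 0.875, Tfeb 6.46% ± 0.630 and Mitf 1.62% ± 0.250. In iEZR_CA the pool at T24 was 69.8% ± 0.843 Tfe3, 24.3% ± 0.942 Tfeb and 5.87% ± 0.109 Mitf, between the WT pools at ESC and T24. At T48 the Tfe3 share was 93.4% ± 0.480 in WT and 89.8% ± 1.31 in iEZR_CA. Every share of the 3 genes was without overlap between the lines at each stage, at the smallest p of 0.1 that the two-sided exact permutation test can give. Exon length joins all annotated transcripts (9.261 kb for Tfe3), so a gene whose cells use shorter transcripts gets too low a share. The shares of Fnip2 and Rragd and the sums below carry the same limit.

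The size of the whole MiT/TFE pool over time depended on how libraries were scaled. On the size-factor scale, the sum of the 3 genes per kilobase was 678 ± 9.38 normalized counts in WT ESCs, 586 ± 9.10 at T24 and 573 ± 11.6 at T48 (SD, n = 3). In iEZR_CA it was 568 ± 7.98, 451 ± 4.08 and 420.1 ± 8.38. Scaled to the spike-in RNA, an alternative added after the data were seen, the sum was 616 ± 32.2, 579.5 ± 4.33 and 617 ± 23.3 in WT, which ended where it began, and 535 ± 27.0, 469 ± 38.8 and 471 ± 91.0 in iEZR_CA, where the T48 libraries overlapped those at ESC. On either scale, every iEZR_CA library was below every WT library of its stage.

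Compared per kilobase of exon, the order of the 10 genes was also different by stage. In WT ESCs Rragd was at the top with 478 ± 24.8 normalized counts per kilobase, followed by Tsc2 at 409.6 ± 5.98. Rragc at 332 ± 6.79 and Flcn at 331 ± 13.4 overlapped, as did Mitf at 158 ± 17.0 and Fnip1 at 157 ± 10.3. Between these pairs lay Tfe3 at 278 ± 1.38 and Tfeb at 241 ± 8.80, and at the bottom were Fnip2 at 109.9 ± 8.20 and Tsc1 at 96.9 ± 2.22. The other neighbours in this order did not overlap.

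At T24 in WT, Rragc (539 ± 15.5 normalized counts per kilobase) and Tfe3 (538 ± 11) led and overlapped, and Tfeb (37.8 ± 3.64) and Mitf (9.48 ± 1.42) came last. In iEZR_CA at T24, Tsc2 (463 ± 17.4) led, Rragc (389.6 ± 21.0) and Tfe3 (314 ± 5.14) followed, and Tfeb (109.7 ± 4.15) overlapped Fnip1 (114 ± 3.26). At T48 Rragd led again in WT, at 795 ± 3.05, above Tfe3 at 535 ± 11. In iEZR_CA at T48 it stood at 354 ± 19.1, overlapping Tfe3 at 377 ± 10.7 and below Tsc2 at 437 ± 1.28. Exon length counts all annotated transcripts, so genes whose cells use shorter transcripts are set too low on this scale.

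Within each line, the number of the 10 genes called is given beside the share of all genes called, and with 10 genes it is no result about them. From ESC to T24, 9 were called in WT (3 higher, 6 lower) beside 65.4% of all tested genes (31.8% higher, 33.6% lower). In iEZR_CA 9 were called (4 higher, 5 lower) beside 56.0% (27.1% higher, 28.9% lower). From T24 to T48, 6 were called in WT (1 higher, 5 lower) beside 65.7% of all genes (32.8% higher, 32.9% lower), and 9 in iEZR_CA (4 higher, 5 lower) beside 59.6% (29.6% higher, 30.0% lower). From ESC to T48 it was 10 in WT (74.5%) and 9 in iEZR_CA (70.1%). The spike-in RNA moved the median of all genes by 0.13 to 0.27 on the log2 scale in the WT changes and by 0.10 to 0.25 in those of iEZR_CA, so small changes with time depend on the reference.

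The test of whether the change from ESC differed between the lines called 9 of the 10 genes at T24 (5 higher in iEZR_CA, 4 lower), beside 38.3% of all genes (21.5% higher, 16.9% lower). At T48 it called 7 (5 higher, 2 lower), beside 45.8% (25.7% higher, 20.0% lower). Changes within a line allow a further description, the iEZR_CA change as a percentage of the WT change. At T24 it was -11.6% for Flcn, which moved in opposite directions in the 2 lines and was not called in iEZR_CA, 12.5% for Tfeb, 23.0% for Fnip2, 40.1% for Tfe3, 62.0% for Fnip1, 65.9% for Rragc, 68.6% for Tsc1, 70.3% for Mitf and 126% for Rragd. None is given for Tsc2 at T24, which was not called in WT. The median over the 6651 genes called in WT at an absolute log2 fold change above 0.5 was 58.8%. At T48 it was -24.2% for Tsc2, 21.4% for Tsc1, 44.6% for Flcn, 51.0% for Fnip1, 69.1% for both Tfe3 and Tfeb, 89.8% for Fnip2, 92.5% for Rragc and 97.0% for Mitf, with a median of 68.8% over 9075 genes. Rragd at T48 had -101%, which is a change of the same size in the other direction. The WT changes of Flcn and Tsc1 at T24, and of Tsc1, Tsc2 and Rragc at T48, were smaller than 0.5, so these percentages rest on small changes. Both medians are over genes chosen by their change in WT alone, which favours a smaller change in iEZR_CA.

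**Figure D4:**
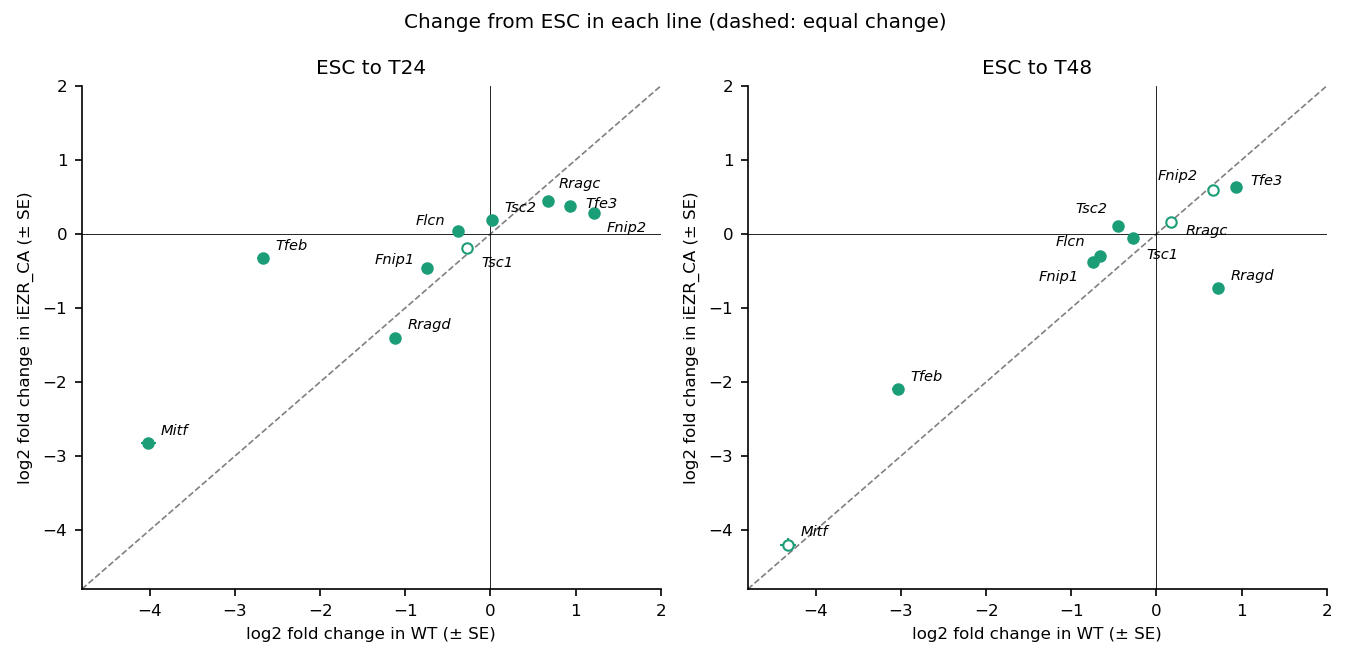
Log2 fold change from ESC in WT (x axis) against that in iEZR_CA (y axis), with SE, to T24 (left) and T48 (right). Filled points are genes whose change differed between the lines at an adjusted p under 0.05, and the dashed line marks equal change. Tfeb at T24 (-2.67 in WT, -0.33 in iEZR_CA) and Rragd at T48 (0.72 and -0.73) lay farthest from it.

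Genes whose group means followed the 10 genes most closely were looked up for Flcn, Tfe3 and Rragd, over 6 group means of log2 normalized counts and among 12801 genes. For Flcn they were Traip (Pearson's r = 0.994), Dzip1 (0.994) and Rnf40 (0.992). For Tfe3 they were Ddx46 (0.997), Ube2g1 (0.996) and Irs4 (0.996), and for Rragd Ptcd2 (0.999), Gm5566 (0.995) and Gm4754 (0.986). With 6 points and so many genes searched, values this high are a description of shape only. Shape is not size, since Ddx46 spanned 0.28 on the log2 scale and Irs4 7.52.

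The counts of list genes between the lines that follow stand beside 26.4% of all tested genes higher and 28.1% lower in iEZR_CA at ESC, 30.8% and 30.1% at T24, and 31.0% and 30.1% at T48. Around the 10 genes, the other Rag, Ragulator and nutrient-sensing genes (24 tested) did not move one way between the lines. In iEZR_CA, 7 were higher and 7 lower at ESC, 10 and 11 at T24, and 8 and 11 at T48, with median log2 fold changes of -0.02, -0.02 and -0.12 beside -0.01, -0.00 and 0.00 over all genes. Rragb, a partner with which RagC or RagD forms a dimer, was the lowest of them at each stage. It had 393, 403 and 398 normalized counts in WT ESCs and 104, 96.3 and 104 in iEZR_CA ESCs, and the log2 fold changes were -1.99 ± 0.0916 at ESC, -1.62 ± 0.0600 at T24 and -0.94 ± 0.0501 at T48 (edgeR adjusted p = 2.4e-29, 9.7e-35 and 2.5e-26). The highest were Sesn3 at ESC (0.42), Lamtor4, a Ragulator subunit, at T24 (0.54) and Wdr59, of the GATOR2 complex, at T48 (0.65). Wdr59 is on chromosome 8, where the median of all genes was 0.18 at T48.

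Of 11 genes of the TSC and mTORC1 core, 4 were higher and 4 lower at ESC, 4 and 5 at T24, and 2 and 5 at T48 in iEZR_CA. Tbc1d7, the remaining subunit of the complex of Tsc1 and Tsc2, was higher by 0.29 at ESC (edgeR adjusted p = 0.025) and lower by 0.68 at T48 (log2 fold change -0.68, adjusted p = 1.2e-08). Akt1s1, an mTORC1 inhibitor, was the lowest at ESC and T24 (-0.67 and -0.51), and Ulk1, the autophagy kinase that mTORC1 restrains, was the highest at T24 and T48 (0.75 and 0.97). AMPK is a kinase that signals upstream of folliculin and TSC2, and its list held Stk11 beside the AMPK subunit genes. Of the 7 tested genes of this list, 4 were higher at ESC, 5 at T24 and 3 at T48, and 0, 0 and 1 were lower. Beside them, 26.4%, 30.8% and 31.0% of all genes were higher. With 7 genes these counts are no result about AMPK. Prkaa2, a catalytic subunit, had the largest rise at ESC (0.54) and T48 (0.93), and Prkag2 at T24 (0.86). At T24, 3 genes of the AMPK list and not 5 were called without WT replicate 1.

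Lysosomal genes on which MiT/TFE factors act were mostly called lower at T24 than at ESC in both lines, where 33.6% of all tested genes were lower in WT and 28.9% in iEZR_CA, and 31.8% and 27.1% were higher. From ESC to T24 in WT, 17 of 20 lysosomal enzyme genes of the CLEAR network fell and 1 rose, with a median log2 fold change of -0.86 beside -0.01 over all genes. In iEZR_CA, 16 fell and 1 rose, with a median of -0.65. The lysosomal membrane and proton pump genes (20 tested) had 18 falls and 1 rise in WT (median -0.46), and 17 falls and no rise in iEZR_CA (median -0.45). The autophagy genes (11 tested) had 7 falls and 3 rises in WT and 4 falls and 2 rises in iEZR_CA, with 5 not called, so their share of falls in iEZR_CA was near the background. Tfeb and Mitf fell over the same step and Tfe3 rose.

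For the lysosomal enzymes the change to T24 differed between the lines in 1 direction. The test of the difference called 13 of 20 as higher in iEZR_CA and 0 as lower, with a median of 0.34 beside 0.01 over all genes, and 21.5% of all genes were called higher and 16.9% lower. Of the same genes, 13 were higher and 2 lower in iEZR_CA at T24 (median 0.20), against 5 higher and 5 lower at ESC (median -0.02) and 5 higher and 9 lower at T48 (median -0.09). Most of these enzyme genes fell in WT. Over the 6651 genes described above, the median iEZR_CA change to T24 was 58.8% of the WT change. Those genes were chosen by their change in WT alone, which favours a smaller change in iEZR_CA. Other falling genes were not compared, so the counts do not set this list apart from them. Psap, the precursor of the saposins, was the highest at ESC and T24 (0.89 and 0.93), and Glb1, beta-galactosidase, at T48 (1.32). Ctsf was the lowest at ESC and T24 (-0.96 and -0.58) and Gusb at T48 (-0.87). Ctsd, cathepsin D, was higher in iEZR_CA at every stage (0.28, 0.38 and 0.64), with 34.4% of its exonic length shared with another gene.

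The membrane and proton pump genes were mostly higher in iEZR_CA already at ESC. Of 20 tested, 13 were higher at ESC and 3 lower, against 12 and 2 at T24 and 14 and 3 at T48, with medians of 0.23, 0.29 and 0.14. Lamp1, the abundant lysosomal membrane protein, was the highest at ESC, with 12911 ± 534 normalized counts in iEZR_CA and 8215 ± 379 in WT (log2 fold change 0.65 ± 0.0360, edgeR adjusted p = 5.1e-15). Lamp1 is also on chromosome 8, whose median was 0.18 at ESC. Mcoln1, Atp6v0d1 and Atp6v1b2 of this list are on that chromosome too, and were higher in iEZR_CA at ESC without overlap. The part of the chromosome's shift in the list's counts was not tested. Cd63 was the highest at T24 (0.86) and Atp6v0d1, a proton pump subunit on chromosome 8, at T48 (0.70). Pip4p1 was the lowest at each stage among called genes above that mean (-0.91, -0.83 and -0.85). It is on chromosome 14, where the medians were -0.30, -0.35 and -0.26. Gpnmb, often used to read out MiT/TFE activity, had 20, 33 and 18 raw reads in WT ESCs and 36, 49 and 30 in iEZR_CA ESCs, which do not overlap once normalized (15.3 to 25.2 against 39.9 to 42.0), and at most 6 in any T24 library. At T48 it had 27, 2 and 18 raw reads in WT and 2, 5 and 1 in iEZR_CA, lower on average in iEZR_CA (2.24 against 13.1 normalized counts), with the lines overlapping near the floor of 3 reads.

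**Figure D5:**
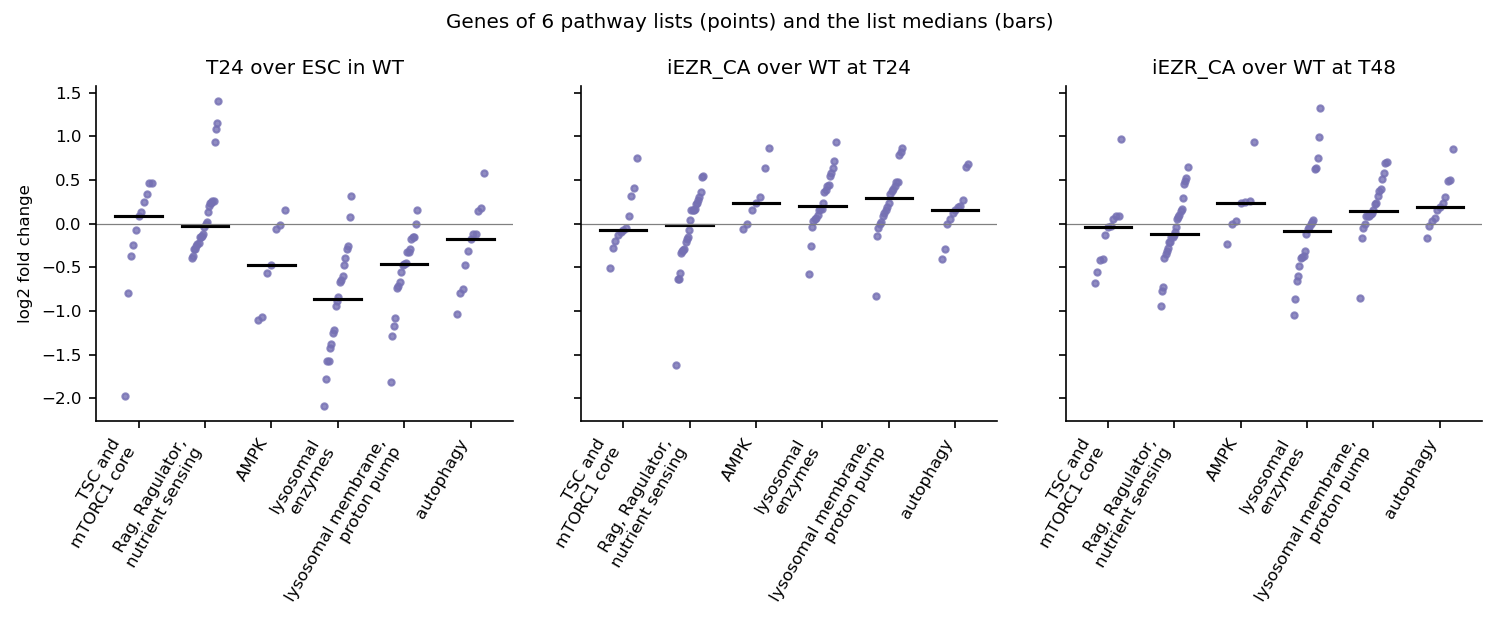
Log2 fold changes (y axis) of the tested genes of 6 lists (x axis), each point a gene and each bar the list's median, for T24 over ESC in WT (left), iEZR_CA over WT at T24 (middle) and at T48 (right). Gpnmb enters the median and is not drawn, since its counts were near 0 at T24. Lysosomal enzymes lay mostly below 0 during WT exit (median -0.86) and mostly above 0 in iEZR_CA at T24 (median 0.20).

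Among autophagy genes, 1 was higher and 2 lower in iEZR_CA at ESC, 7 and 2 at T24, and 5 and 0 at T48, with medians of -0.03, 0.16 and 0.19. Map1lc3b was the highest at ESC and T24 (0.46 and 0.68), on chromosome 8, and Nrbf2 the lowest (-0.35 and -0.41). Sqstm1, the autophagy receptor p62, had 5790, 5622 and 5692 normalized counts in WT and 6558, 6584 and 6522 in iEZR_CA at T24, and 3223, 3201 and 3143 against 5609, 5766 and 5814 at T48. The iEZR_CA libraries were higher at both stages, with log2 fold changes of 0.20 ± 0.0266 (edgeR adjusted p = 8.7e-10, but 0.068 under spike-in scaling) and 0.85 ± 0.0279 (adjusted p = 9.3e-38).

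Esrrb, the naive factor that nuclear TFE3 is known to sustain, stayed higher in iEZR_CA. It had 21254, 21333 and 20914 normalized counts in WT ESCs and 19336, 18926 and 19391 in iEZR_CA ESCs. At T24 it had 5937, 5914 and 5908 in WT and 12034, 12315 and 11656 in iEZR_CA, and at T48 it had 355, 369 and 413 against 2511, 2584 and 2693. iEZR_CA was slightly lower before exit and higher after it, with log2 fold changes of -0.15 ± 0.0264 (edgeR adjusted p = 2.2e-06, but 0.65 under spike-in scaling), 1.02 ± 0.0277 (adjusted p = 2.3e-42) and 2.77 ± 0.0398 (adjusted p = 2.6e-58). Over the same stages Tfe3 RNA was lower in iEZR_CA. Of the 12 genes of the list of other exit regulators, which holds Esrrb, 9 were called at ESC (6 higher), 11 at T24 (7 higher) and 7 at T48, where each was higher. Gsk3b was the highest at ESC (0.62) and Zfp281 the lowest at T24 (-0.49).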

How the data were processed

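Poly(A) RNA of 18 cultures was sequenced, 3 for each of 6 groups, which the study calls independent biological replicates. The authors deposited raw read counts per Ensembl gene. Per the labels' processing notes, reads were trimmed with Trim Galore 0.6.5, aligned to mm10 with GSNAP 2015-09-29 and counted with HTSeq. Strand use in counting is not given in the sources used here. Reads that HTSeq set aside (21.3% to 24.3% of a library) and spike-in RNA (0.575% to 0.884%) stayed out of library sizes and tests. Depth was 10940752 to 33276622 reads on genes, and the common biological coefficient of variation was 2.98%.

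Counts were tested in R 4.3.3 with edgeR 4.0.16 (TMM, filterByExpr, robust quasi-likelihood fit of all 18 libraries, 1 term per group), which left 18469 genes and 12 residual degrees of freedom. Fold changes with time, between lines and their difference were contrasts of that fit. Normalized counts used DESeq2 1.42.0 size factors. Levels were divided by the GENCODE M21 exonic length to compare genes, and 53620 of 53801 identifiers were in that annotation. Replicates were numbered in accession order, and no 2 libraries of a group agreed within sampling noise (chi-square per degree of freedom from 1.62 to 3.68). The fit was tested on simulated data.

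The 10 genes and the pathway lists were chosen with earlier results of these data known. Named besides the 10 genes were Ezr, Esrrb, Gpnmb, Lamp1, Ctsd, Sqstm1, Tfec, the largest rise and fall of each list between the lines (mean normalized count of at least 50) and the 3 genes most like Flcn, Tfe3 and Rragd. Family shares, their exact permutation tests, the iEZR_CA change as a percentage of the WT change, the motif search, the MiT/TFE sum under spike-in scaling and the primitive endoderm sum without Dab2 were added after the values were seen. Alternatives were DESeq2, other size factors, spike-in scaling, other filters, fits of fewer libraries and centring on a chromosome's median.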

Additional observations from a re-analysis of the deposited data

Results flagged for a closer look

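For each result here, edgeR's test of the difference between the lines' changes from ESC passed an adjusted p under 0.05. From ESC to T24, the iEZR_CA change minus the WT change was, on the log2 scale, 2.34 for Tfeb, 1.19 for Mitf, 0.42 for Flcn, 0.28 for Fnip1 and 0.18 for Tsc2, and it was -0.94 for Fnip2, -0.56 for Tfe3, -0.29 for Rragd and -0.23 for Rragc. From ESC to T48 it was 0.94 for Tfeb, 0.55 for Tsc2, 0.37 for Flcn, 0.36 for Fnip1 and 0.21 for Tsc1, and it was -1.45 for Rragd and -0.29 for Tfe3. Those of Flcn, and that of Tfeb to T48, have their counterpart in the ESC values, as given above. At T24, the differences of Flcn, Fnip1, Tsc2, Rragc and Rragd lost their call under spike-in scaling, and at T48 those of Flcn, Fnip1, Tfe3 and Tsc1 did. Groups of 3 libraries are too small to test a single library against the others.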

How the results depend on the processing

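The 110 values of the 10 genes in 11 comparisons kept their direction and their side of the threshold in 109 with DESeq2, 110 with DESeq2's size factors in edgeR, 105 with upper-quartile factors, 109 without a filter, 110 with at least 10 counts in every library and 110 with only the libraries compared. Leaving out each library kept 765 of 780 values, with 13 losing and 2 gaining a call, and left the number of the 10 genes called within 1.5 times the main count. Relative to the median of their own chromosome, 27 of 30 differences between the lines moved by less than 1 SD. Scaling to spike-in RNA kept 77 and lost the call of 31. In 2 more the call was lost and the sign changed, with no difference called the other way. They were Tsc1 from ESC to T48 in WT (0.00 ± 0.131, from -0.27, edgeR adjusted p = 0.99) and Tsc2 from T24 to T48 in iEZR_CA (0.02 ± 0.125, from -0.09, edgeR adjusted p = 0.91). This scaling left 3 genes called between the lines at ESC and 4 at T48, 5 from T24 to T48 in iEZR_CA, and 4 and 3 in the differences of change to T24 and T48. Spike-in scaling also called fewer list genes between the lines: at ESC, T24 and T48, Rag and nutrient-sensing genes went from 14, 21 and 19 to 8, 9 and 10, TSC and mTORC1 core genes at ESC and T24 from 8 and 9 to 3 and 4, AMPK genes at T24 and T48 from 5 and 4 to 2 and 1, lysosomal enzymes at ESC from 10 to 6, membrane and pump genes at ESC and T48 from 16 and 17 to 10 and 9, autophagy genes at ESC and T24 from 3 and 9 to 1 and 3, and exit genes at ESC and T24 from 9 and 11 to 4 and 5. Between the lines, spike-in scaling moved the median of all genes by 0.04 to 0.07, while SEs were larger. For Rragc at ESC the log2 fold change was -0.18 ± 0.131, from -0.23 ± 0.0453. For Flcn the difference of change to T24 was 0.43 ± 0.185, from 0.42 ± 0.0615. A call lost under this scaling therefore does not show that the lines were alike. The cause of the larger SEs was not tested. Calls lost without 1 library were Tsc1 at T24 and Mitf at T48, given above, Tsc1 from T24 to T48 in iEZR_CA (0.13, and 0.07 without T24 replicate 3 or 0.11 without T48 replicate 3), Tsc2 over that step (-0.09, and -0.08 without T24 replicate 2 or -0.07 without T24 replicate 3) and Rragc from ESC to T48 in iEZR_CA (0.16, and 0.11 without T48 replicate 2). No paired analysis was possible because the labels carry no replicate numbers. With 1 derived line, transgene, drug and line cannot be told apart.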
